A study of Rattus norvegicus with 28 samples.

Results

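The dose step of PeCDF is the difference between primary rat hepatocytes exposed to 2 nM and those exposed to 0.02 nM of this compound, a 100-fold change in dose. It was taken from the arrays labelled PeCDF 2 nM and PeCDF 0.02 nM, which are 8 of the 28 arrays of the series, and it was computed for all 34832 gene names with a value at both doses. PeCDF (2,3,4,7,8-pentachlorodibenzofuran) is a chlorinated dibenzofuran and a ligand of the aryl hydrocarbon receptor (AHR). The series also holds TCDD, a dioxin, TCDF, a furan with fewer chlorines, and untreated cells, and every array carries DMSO RNA of the same animal in its other channel.

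The cells came from 2 adult female Sprague-Dawley rats, called A and B, and were kept for 48 h in medium with 0.1 uM dexamethasone before they were exposed for 24 h. The groups used here were PeCDF 2 nM, PeCDF 0.02 nM and the DMSO solvent, all in 0.1% DMSO and all with dexamethasone. RNA of 3 dishes of an animal was pooled into 1 hybridization sample. Each dose was read on 4 arrays, 1 in each dye orientation for each rat, and the pair of a rat was averaged, so n = 2 rats per dose throughout. Whether the arrays of a rat shared a single DMSO sample is not given in the sources used here. Values of 4 arrays are listed in the order rat A with the test RNA in red, rat A in green, rat B in red and rat B in green.

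AHR is a cytosolic receptor that binds planar aromatic ligands, enters the nucleus, pairs with ARNT and binds response elements with the core GCGTG. Its best known targets in liver, the AHR battery, are cytochromes P450 of the CYP1 family and enzymes that reduce, oxidise or conjugate their products. Many dioxins and furans with chlorines at the lateral positions, though not all, persist in tissue because these enzymes act on them slowly.

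The promoters of Cyp1b1 and Cyp1a2 are shown because these were the battery genes that passed the test of the dose step. Each run covers 250 bases before to 50 bases after the start of the gene in RefSeq (build GRCr8), read 5′ to 3′ on the strand of the gene, and capitals mark GCGTG or, for a match on the opposite strand, CACGC. Cyp1b1 lies on the plus strand with its window at chr6:21094315-21094614, and Cyp1a2 on the minus strand with its window at chr8:66978100-66978399.
Cyp1b1: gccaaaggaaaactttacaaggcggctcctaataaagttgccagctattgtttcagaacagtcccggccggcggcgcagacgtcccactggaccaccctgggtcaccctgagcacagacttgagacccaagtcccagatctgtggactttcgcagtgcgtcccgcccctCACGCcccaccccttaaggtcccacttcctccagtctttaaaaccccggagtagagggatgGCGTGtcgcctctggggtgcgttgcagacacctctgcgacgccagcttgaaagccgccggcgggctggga
Cyp1a2: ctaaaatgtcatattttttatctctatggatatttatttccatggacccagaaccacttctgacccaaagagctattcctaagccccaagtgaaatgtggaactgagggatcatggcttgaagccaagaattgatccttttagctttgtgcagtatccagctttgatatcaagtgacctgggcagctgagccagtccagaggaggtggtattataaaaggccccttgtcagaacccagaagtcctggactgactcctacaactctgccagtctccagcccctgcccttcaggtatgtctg
The Cyp1b1 window holds 2 matches, which begin 20 bases before the start on the same strand and 81 bases before it on the opposite strand. In the Cyp1a2 window these letters do not occur, and sequence outside the windows was not searched. The motif was searched on both strands and occurs in 29.7% of the 33469 promoters of the table. It occurs in 7 of the 10 windows found for measured battery genes, in 2 of the 4 found for named genes that rose in the dose step, and in 2 of the 10 found for named genes that fell.

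The question of the dose step is which transcripts differ between the higher and the lower PeCDF dose when both are set against the same solvent. With limma, 29 of 34832 genes passed at a Benjamini-Hochberg adjusted p under 0.05, which is 0.0833% of those tested. Of these, 9 rose (0.0258%) and 20 fell (0.0574%), and 1790 had an unadjusted p under 0.05. A gene symbol was found for 20 of the 29, of which 7 rose and 13 fell. Changes over 2-fold were seen in 4 genes that rose and in 1 that fell. With the animal as a replicate block 49 genes passed, 15 higher and 34 lower, 28 of them among the 29. With the animal within a scan session as a block 117 passed, 33 higher and 84 lower, and all 29 remained.

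**Figure D1:**
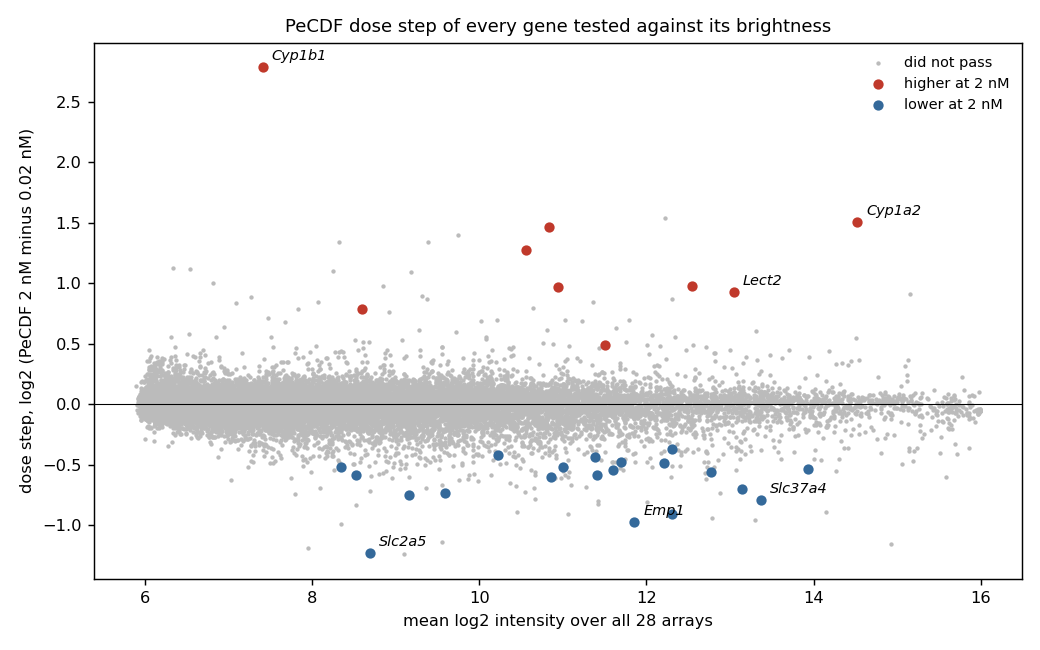
Each point is 1 of the 34832 gene names; the horizontal axis is its mean log2 intensity over all 28 arrays and the vertical axis its dose step in log2 units (PeCDF 2 nM minus 0.02 nM). Red points are the 9 genes that rose and blue points the 20 that fell; Cyp1b1, at 2.79, lies highest.

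The counts depended on the animals and on the scaling. They were 0 without rat A (1037 genes at an unadjusted p under 0.05) and 57 without rat B, of which 54 were higher and 9 belonged to the 29. Of the single leave-outs, 3 genes passed without rat A at 2 nM, 22 without rat B at 2 nM, 2 without rat A at 0.02 nM and 125 without rat B at 0.02 nM, 106 of these higher. The split into higher and lower genes was 9 and 8 with no background correction, 7 and 0 with Agilent's own log ratio, and 1 and 0 with median centring in place of loess.

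The counts against DMSO were far apart at the ends of the step. PeCDF 2 nM against DMSO gave 1529 genes past the test with limma (4.39%), 599 higher (1.72%) and 930 lower (2.67%), and 3 higher and 1 lower with median centring in place of loess. The count was 136 without rat A at 2 nM, 655 without rat B at 2 nM, and 2647 with the animal within a scan session as a block. PeCDF 0.02 nM against DMSO gave 0 (0%), with 2651 genes at an unadjusted p under 0.05 and a smallest adjusted p of 0.44. With arrays entered singly and a dye term 601 genes passed at 0.02 nM. That fit takes the 2 dye orientations of a rat as linked repeats of the same pooled RNA, so it adds no rats. The 20 genes of the step with a symbol had mean ratios between -0.18 and 0.29 (log2) at 0.02 nM.

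Cyp1b1 and Cyp1a2 rose most among the named genes that passed the test. Cyp1b1, which oxidises oestrogens and polycyclic hydrocarbons, had log2 ratios over DMSO of 3.18, 3.00, 2.47 and 2.47 at 2 nM, against -0.19, 0.15, -0.07 and 0.07 at 0.02 nM. The 2 nM arrays of rat A were above those of rat B, and all 4 lay above every 0.02 nM array. The step was 2.79 ± 0.21 (log2 ± SE, 6.91-fold, limma adjusted p = 0.00164, 95% interval 2.32 to 3.26). At 0.02 nM the probe was well above background on 3 of 4 arrays, and another probe of the gene had a step of 0.57. With no background correction the step was 1.58 (adjusted p = 0.0509). Cyp1a2, which oxidises caffeine and aromatic amines, had 1.71, 1.87, 1.75 and 1.87 at 2 nM, against 0.28, 0.33, 0.27 and 0.29 at 0.02 nM. Both groups were narrow, and the 0.02 nM arrays were all above 0. Its step was 1.51 ± 0.17 (2.84-fold, adjusted p = 0.0123 with limma). The test channel was saturated on 3 of 4 arrays at 2 nM and on 0 of 4 at 0.02 nM, and an unsaturated probe of the gene had a step of 1.85.

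Cyp1a1, the most responsive AHR target in many tissues, reached the limit of the scanner. Its ratios were 2.26, 1.49, 1.67 and 1.04 at 2 nM, against 0.63, 0.73, 0.58 and 0.86 at 0.02 nM, so it was already above DMSO on every array of the lower dose. The test channel was saturated on 4 of 4 arrays at 2 nM and on 1 of 4 at 0.02 nM. By the measured means it was 1.88-fold higher at 2 nM. Saturation at 2 nM lowers this value and saturation of the 0.02 nM array raises it, so it is not a bound. The difference was 0.91 ± 0.16 and did not pass (limma adjusted p = 0.114), and with the animal as a replicate block it did (adjusted p = 0.0376). With the test RNA in red alone the difference was 1.36, and in green alone 0.47.

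Of the 12 battery genes measured, of 14 listed, 2 rose and 0 fell in the dose step, beside 0.0258% and 0.0574% of all genes. Their median step was 0.90, beside 0.00 over all genes tested. In 9 of the 12 the 4 arrays at 2 nM lay wholly above the 4 at 0.02 nM, which was so for 3.18% of all genes tested, and in none wholly below, which was so for 3.75%. The medians of the list against DMSO were 1.15 at 2 nM and 0.10 at 0.02 nM, beside -0.001 and -0.002 over all genes.

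Nqo1, a quinone reductase, had 1.66, 1.43, 1.77 and 1.61 at 2 nM, against 0.15, 0.00, 0.39 and 0.32 at 0.02 nM. The groups did not overlap, and the step of 1.40 ± 0.26 did not pass (limma adjusted p = 0.114). It did with the animal within a scan session as a replicate block (adjusted p = 0.041). Tiparp, a mono-ADP-ribosyltransferase that restrains AHR, had 1.76, 1.97, 1.09 and 1.28 at 2 nM, against 0.15, 0.12, 0.20 and 0.26 at 0.02 nM. Here the rats differed at the higher dose, rat A being above rat B in both orientations, and the step was 1.34 ± 0.35 (adjusted p = 0.357). Aldh3a1, an aldehyde dehydrogenase, had 0.49, 0.19, 2.11 and 2.03 at 2 nM, against -0.09, -0.18, -0.15 and -0.13 at 0.02 nM. Rat B was far above rat A at 2 nM while the 0.02 nM arrays lay together, and the step was 1.34 ± 0.52 (adjusted p = 0.805).

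The conjugating members of the battery had smaller steps. Ugt1a6, which conjugates phenols with glucuronic acid, had 1.27, 1.06, 1.13 and 0.94 at 2 nM, against 0.21, -0.02, 0.38 and 0.27 at 0.02 nM, a step of 0.89 ± 0.25 (limma adjusted p = 0.433). Ugdh, which makes the glucuronic acid donor, had 0.37, 0.42, 0.44 and 0.52 at 2 nM, against -0.11, -0.07, 0.12 and 0.15 at 0.02 nM, a step of 0.42 ± 0.13 (adjusted p = 0.573). In both genes the groups did not overlap and the step did not pass. Gsta2, a glutathione transferase, had -0.27, -0.05, 0.87 and 0.93 at 2 nM, against -0.62, -0.46, 0.02 and 0.15 at 0.02 nM. Each rat was higher at 2 nM, but rat A at 2 nM lay below rat B at 0.02 nM, so the groups overlapped and the step was 0.60 ± 0.33. Nfe2l2, which encodes the oxidant-response regulator NRF2, had a step of 0.45 ± 0.13 (adjusted p = 0.492) with no overlap of the arrays. The amino acid transporter Slc7a5 and the cytochrome Cyp2s1 had steps of 0.06 ± 0.09 and -0.08 ± 0.05, with overlapping arrays.

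**Figure D2:**
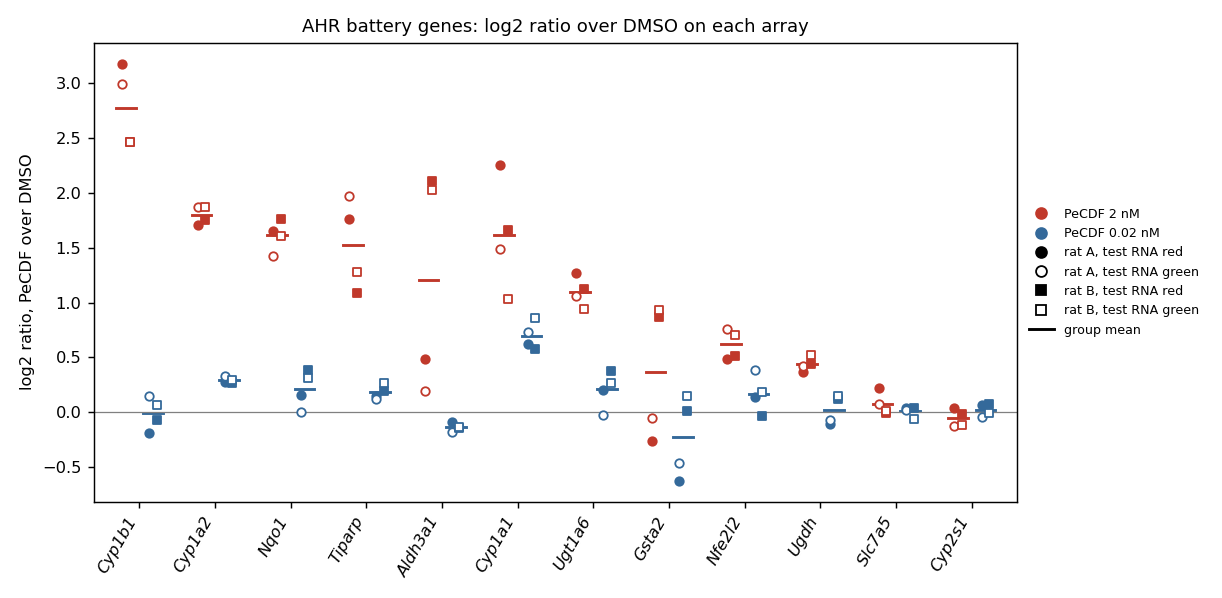
Points are log2 ratios of PeCDF over DMSO on single arrays for the 12 battery genes measured, with 2 nM in red at the left of each gene and 0.02 nM in blue at the right; circles are rat A, squares rat B, filled points have the test RNA in red, and bars are group means. In 9 genes the 2 nM arrays all lie above the 0.02 nM arrays, and in Aldh3a1 the rats separate at 2 nM.

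The receptor itself and its partners showed no member past the test. Of the 10 genes of the AHR complex measured (AHR, ARNT, their chaperones and coactivators) 0 rose and 0 fell with limma, 0 had an unadjusted p under 0.05, and the steps ran from -0.22 to 0.14 with a median of -0.01.

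Beside the battery, 5 named genes rose, none of them on the battery list. Lect2, a secreted liver protein that attracts leukocytes, had 0.86, 0.86, 0.80 and 0.83 at 2 nM, against -0.14, -0.08, -0.09 and -0.06 at 0.02 nM. Its 4 arrays at each dose lay close together, and its step of 0.93 ± 0.07 (1.9-fold) had the smallest adjusted p of all genes in the limma fit (adjusted p = 0.00146). Defb1, an antimicrobial beta-defensin, had 0.88, 1.02, 0.74 and 0.84 at 2 nM, against -0.19, -0.04, -0.14 and -0.04 at 0.02 nM, a step of 0.98 ± 0.10 (1.97-fold, adjusted p = 0.00836). Selenbp1, a methanethiol oxidase that binds selenium, had 0.84, 0.71, 1.12 and 1.03 at 2 nM, against -0.11, -0.21, 0.09 and 0.05 at 0.02 nM, and its step was 0.97 ± 0.12 (1.95-fold, adjusted p = 0.0192). Rat B was above rat A at both doses.

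Ddit4l, which inhibits mTOR signalling, had 0.82, 0.76, 0.80 and 0.77 at 2 nM, against 0.00, -0.09, 0.09 and 0.00 at 0.02 nM. The rats were close at both doses, and the step was 0.79 ± 0.07 (1.72-fold, limma adjusted p = 0.00394), or 0.52 with no background correction. Hsd17b2, which oxidises oestradiol and testosterone to less active ketosteroids, had 0.66, 0.59, 0.58 and 0.45 at 2 nM, against 0.09, 0.03, 0.15 and 0.04 at 0.02 nM. All 8 arrays were above 0, the groups did not overlap, and the step was 0.49 ± 0.05 (1.41-fold, adjusted p = 0.00836). The other 2 genes that rose have no symbol here. The one listed as AB084894, which the files describe as a cytochrome P450 3A mRNA, had 0.99, 1.14, 1.24 and 1.33 at 2 nM, against -0.18, -0.10, -0.10 and -0.02 at 0.02 nM, a step of 1.28 ± 0.11 (2.42-fold, adjusted p = 0.00394). The one listed as AB032087 had a step of 1.46 ± 0.17 (2.76-fold, adjusted p = 0.0148), with 1.84, 1.90, 1.45 and 1.47 at 2 nM, against 0.06, 0.12, 0.29 and 0.34 at 0.02 nM.

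Sugar handling genes were the largest group among the decreases. Of the 27 glucose metabolism genes measured 0 rose and 5 fell, with a median step of -0.30 beside 0.00 over all genes, and 22 of the 27 had a step below 0. Over all 34832 genes 0.0574% fell and 17519 had a step below 0. The 2 nM arrays lay wholly below the 0.02 nM arrays in 10 of the 27, beside 3.75% of all genes, and wholly above in 1. The medians of the list against DMSO were -0.32 at 2 nM and 0.00 at 0.02 nM.

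Slc2a5, the fructose transporter GLUT5, had -1.47, -1.37, -1.37 and -1.46 at 2 nM, against -0.29, -0.37, -0.11 and 0.03 at 0.02 nM. The 4 arrays of the higher dose lay close together across rats and dyes, and the step was -1.23 ± 0.13 (2.35-fold lower at 2 nM, limma adjusted p = 0.00836), and -0.71 with no background correction (adjusted p = 0.063). Slc37a4, which carries glucose 6-phosphate into the endoplasmic reticulum in the last step of glucose release, had -0.95, -0.77, -0.79 and -0.64 at 2 nM, against -0.06, 0.10, -0.06 and 0.04 at 0.02 nM. Its step was -0.79 ± 0.10 (1.73-fold lower, adjusted p = 0.0183), and another probe had -0.77. Gys2, the glycogen synthase of liver, had -0.72, -0.64, -0.60 and -0.60 at 2 nM, against 0.04, 0.12, 0.02 and 0.08 at 0.02 nM, a step of -0.71 ± 0.09 (1.63-fold lower, adjusted p = 0.0192; another probe -0.40).

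Pfkfb1 sets the level of the fructose bisphosphate that switches liver between glycolysis and gluconeogenesis. It had -0.75, -0.79, -0.68 and -0.74 at 2 nM, against -0.11, -0.13, -0.14 and -0.17 at 0.02 nM, and its step was -0.60 ± 0.06 (1.52-fold lower, limma adjusted p = 0.00836). Fbp1, a bisphosphatase of gluconeogenesis, had -0.73, -0.58, -0.61 and -0.48 at 2 nM, against -0.10, 0.03, -0.15 and -0.02 at 0.02 nM. Its step was -0.54 ± 0.08 (1.45-fold lower, adjusted p = 0.0379; another probe -0.47). In all 5 genes the arrays of the doses did not overlap. The members that fell include genes of glucose release (Slc37a4, Fbp1) and of sugar uptake and storage (Slc2a5, Gys2).

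Aqp9 and Acaca also fell. Aqp9, the channel through which hepatocytes take up glycerol, had -0.72, -0.71, -0.55 and -0.61 at 2 nM, against -0.13, -0.18, -0.03 and -0.08 at 0.02 nM, a step of -0.54 ± 0.06 (1.46-fold lower, limma adjusted p = 0.00836). Acaca, the carboxylase that commits acetyl-CoA to fatty acid synthesis, had -0.65, -0.74, -0.60 and -0.64 at 2 nM, against 0.04, -0.04, -0.18 and -0.21 at 0.02 nM. The step was -0.56 ± 0.08 (1.48-fold lower, adjusted p = 0.0379), it did not pass with the animal as a replicate block (adjusted p = 0.0501), and another probe of the gene had -0.08. Of the 23 fatty acid synthesis genes measured Acaca alone fell and 0 rose, with a median of -0.14 and 8 lying wholly below. Acly, which makes cytosolic acetyl-CoA from citrate, had -1.38, -1.36, -1.15 and -1.13 at 2 nM, against -0.13, -0.20, 0.00 and -0.06 at 0.02 nM. Its step was larger, -1.16 ± 0.21, and did not pass (adjusted p = 0.102). With the animal as a replicate block it did (adjusted p = 0.0131), as did Mid1ip1, an activator of acetyl-CoA carboxylase (step -0.40 ± 0.08, adjusted p = 0.122 without the block and 0.0302 with it). Another probe of Mid1ip1 had a step of -0.17.

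Among enzymes of drug metabolism outside the battery, Cyp2b3 fell. Cyp2b3, a cytochrome of rat liver, had -0.68, -0.70, -0.48 and -0.50 at 2 nM, against -0.13, -0.11, -0.06 and -0.11 at 0.02 nM, a step of -0.49 ± 0.07 (1.4-fold lower, limma adjusted p = 0.031). Every 2 nM array lay below every 0.02 nM array. It was the single member past the test among the 15 CAR and PXR targets measured, where 0 rose, 14 steps were below 0 and the median was -0.16. No member passed among 21 constitutive cytochromes (median -0.17) or among 26 conjugating enzymes (median -0.17, 25 steps below 0). The cytochrome mRNA listed as AB084894, described above, has no symbol here and is in none of these lists. It went the other way from Cyp2b3, with a step of 1.28 ± 0.11 (limma adjusted p = 0.00394).

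The remaining named genes that fell have unlike functions. Emp1, an epithelial membrane protein, had -0.81, -0.73, -0.98 and -0.88 at 2 nM, against 0.03, 0.16, 0.11 and 0.20 at 0.02 nM, a step of -0.97 ± 0.12 (1.96-fold lower, limma adjusted p = 0.0183), though another probe had -0.30. Foxa1, a pioneer transcription factor of liver genes, had -0.52, -0.45, -0.41 and -0.46 at 2 nM, against 0.02, 0.01, 0.16 and 0.06 at 0.02 nM, a step of -0.52 ± 0.07 (1.44-fold lower, adjusted p = 0.0218), and -0.30 with no background correction (adjusted p = 0.0509). It was the single member that fell among 22 liver transcription factors, of which 0 rose and whose median was 0.01.

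Zap70, a kinase of the T cell receptor, had -0.81, -0.79, -0.65 and -0.73 at 2 nM, against 0.07, 0.01, -0.01 and -0.04 at 0.02 nM, a step of -0.76 ± 0.11 (1.69-fold lower, limma adjusted p = 0.0351). C6, a complement component made by hepatocytes, had -0.61, -0.37, -0.53 and -0.33 at 2 nM, against -0.10, 0.11, -0.08 and 0.13 at 0.02 nM, a step of -0.48 ± 0.06 (1.39-fold lower, adjusted p = 0.0257). Of the 7 genes without a symbol that fell, the one listed as TC489628 had the largest step, -0.91 ± 0.10 (1.87-fold lower, adjusted p = 0.0111), and BC088229 the next, -0.74 ± 0.08.

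**Figure D3:**
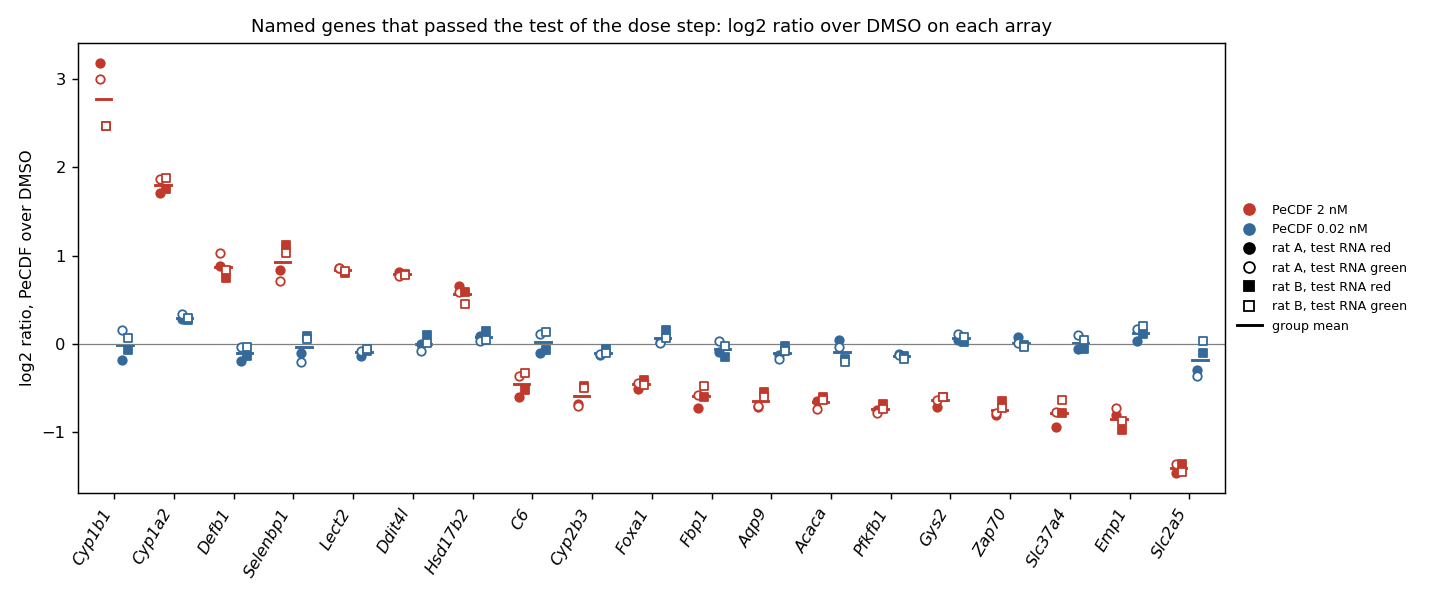
Points are log2 ratios of PeCDF over DMSO on single arrays for the 19 named genes that passed in the dose step, with 2 nM in red at the left of each gene and 0.02 nM in blue at the right; symbols are as in the plot of the battery. The 0.02 nM means lie between -0.18 and 0.29, and in every gene the doses do not overlap, as the rule for named genes required.

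The other pathways had no member past the test in the dose step with limma. Among 24 genes of bile acid synthesis and transport the median was -0.20, with 11 wholly below (3.75% of all genes were) and 9 at an unadjusted p under 0.05 (1790 of all 34832 genes). Akr1d1, a reductase of bile acid synthesis, had -0.38 ± 0.10 and Abcb4, which exports phospholipid into bile, -0.26 ± 0.06. Fatty acid oxidation genes and PPARA targets were 31 together. Their median was -0.16, 28 steps were below 0, 10 genes were wholly below and 9 had an unadjusted p under 0.05. The ketone body enzyme Bdh1 had -0.42 ± 0.08 (adjusted p = 0.122) and Angptl4, an inhibitor of lipoprotein lipase, -0.59 ± 0.12 (adjusted p = 0.184). With the animal within a scan session as a block both passed (adjusted p = 0.0188 for Bdh1 and 0.0473 for Angptl4).

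NRF2 targets ran the other way without passing. Their median was 0.14 over 23 genes, 17 of which had a step above 0 and 4 an unadjusted p under 0.05. Txnrd1, thioredoxin reductase, had 0.57, 0.53, 0.48 and 0.50 at 2 nM, against 0.10, 0.04, 0.00 and -0.06 at 0.02 nM. The arrays were tight and did not overlap, and the step of 0.50 ± 0.08 missed the threshold (limma adjusted p = 0.0736), and passed with the animal as a replicate block (adjusted p = 0.0403). Other probes of Txnrd1 had steps of 0.49 and 0.10. Slc7a11, the cystine importer, had 0.26 ± 0.05.

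Of the 9 genes of the EGF receptor and ligands list measured 0 passed, 6 steps were below 0 and the median was -0.05. The ligands Btc, Egf, Hbegf and Tgfa had steps of 0.14, -0.05, -0.10 and -0.17, of which Btc, Egf and Hbegf are outside the rule for named genes. The 2 other ligands had larger steps with a wide spread between the rats. Ereg (epiregulin) had 1.58, 1.46, 0.65 and 0.59 at 2 nM, against 0.06, -0.12, -0.04 and -0.10 at 0.02 nM, a step of 1.12 ± 0.25 (limma adjusted p = 0.226), and it was well above background on 2 of 4 arrays at 0.02 nM. The step was 0.35 with no background correction and 2.29 with Agilent's own log ratio, passed in neither, and was 0.67 without rat A at 2 nM and 1.57 without rat B at 2 nM (adjusted p = 0.0374). Areg (amphiregulin) had 1.63, 1.46, 0.37 and 0.51 at 2 nM, against 0.37, 0.22, 0.02 and 0.00 at 0.02 nM, a step of 0.84 ± 0.32. In both genes rat A lay above rat B at 2 nM. The chemokine Cxcl1 had 1.38, 1.50 and 0.72 on the 3 arrays with a value at 2 nM, against -0.09, -0.07, -0.16 and -0.07 at 0.02 nM, and its step of 1.54 ± 0.38 rests on rat A alone at 2 nM (adjusted p = 0.327).

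The median step was between -0.07 and 0.10 in the lists of cholesterol synthesis, hepatocyte identity, acute phase, chemokines, cell cycle, p53 targets, unfolded protein response, circadian clock, retinoid metabolism, IGF axis, immediate-early genes, heme and iron, and EGF receptor and ligands, and no member of these lists passed. In the hepatocyte identity and acute phase lists Alb, Tf, Fgg, Hpx, Orm1, Saa4 and Serpina3n, all outside the rule for named genes, had the same step, -0.054. Whether their signal was at the scanner limit was not tested, so these lists do not show an absence of response. Onecut1, a liver transcription factor, had -1.12, -1.09, -1.50 and -1.51 at 2 nM, against 0.34, 0.17, -0.32 and -0.44 at 0.02 nM. Every 2 nM array was lower, and the step of -1.24 ± 0.23, the most negative of all genes, did not pass (limma adjusted p = 0.119), but did with the animal within a scan session as a block (adjusted p = 0.0338). The rats differed at 0.02 nM, where rat A was above 0 and rat B below.

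**Figure D4:**
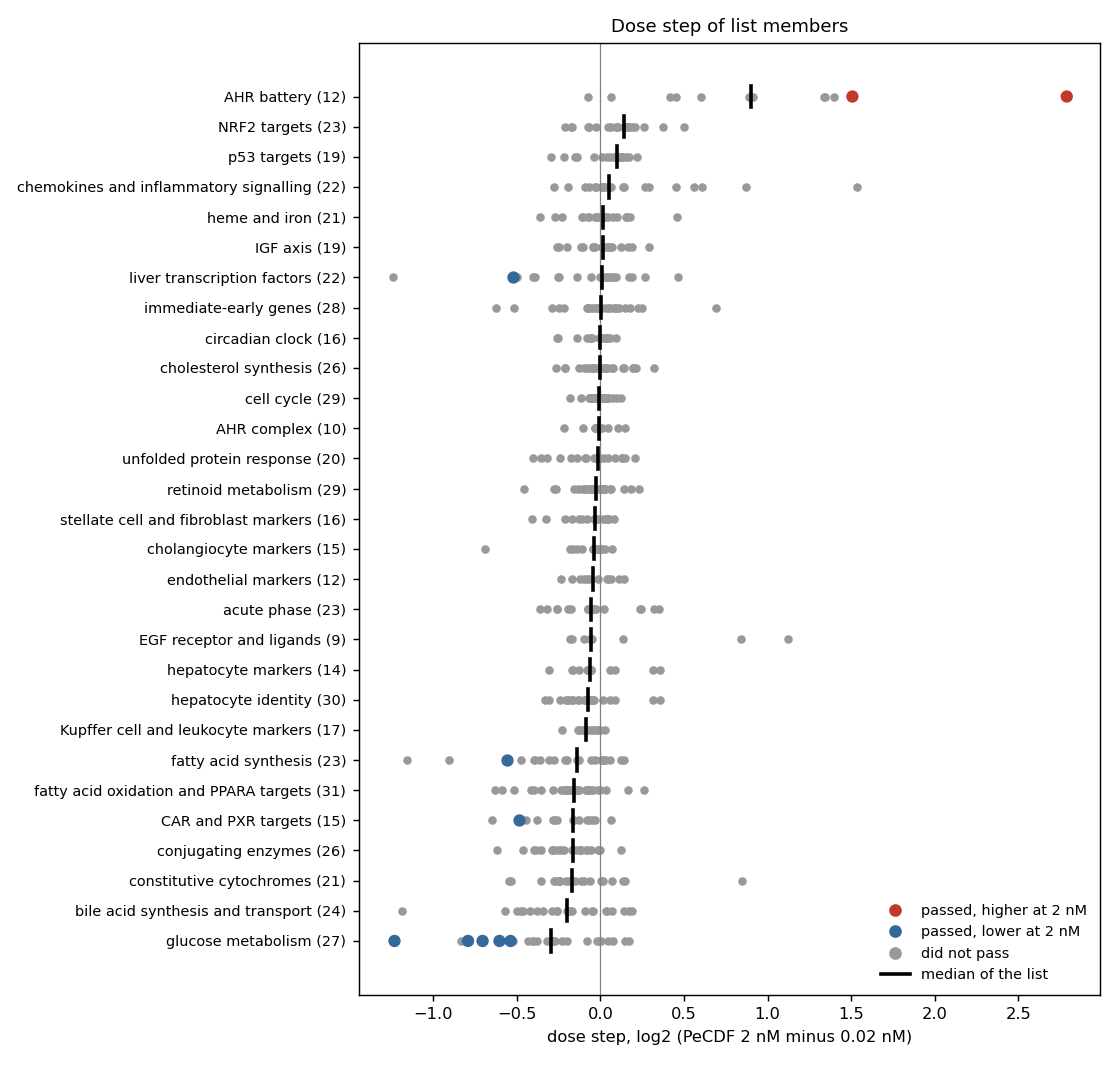
Each row is a gene list with the number of members measured in brackets, each point the dose step of a member in log2 units (PeCDF 2 nM minus 0.02 nM), and each black bar the median of the list. Red and blue points passed the test; the AHR battery has the highest median (0.90) and glucose metabolism the lowest (-0.30).

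The label hepatocyte was checked against marker genes. All 14 hepatocyte markers measured were well above background in the test channel of all 8 arrays. So were 15 of 17 Kupffer cell and leukocyte markers and 15 of 16 stellate cell and fibroblast markers. Among endothelial markers 9 of 12 were, and among cholangiocyte markers 13 of 15. These counts do not tell cell types apart, since 76 to 100% of all probes were well above background on these arrays. Median log2 intensity was 15.16 for hepatocyte markers, beside 6.72 over all genes tested. It was 9.19 for Kupffer cell and leukocyte, 7.81 for stellate cell and fibroblast, 6.51 for endothelial and 7.24 for cholangiocyte markers. None of the markers passed in the dose step with limma, though the cholangiocyte marker Anxa13 had -0.69 ± 0.11 (adjusted p = 0.0616, and 0.0425 with the animal within a scan session as a block). By their median the hepatocyte markers were as bright as Cyp1a1, which had a mean log2 intensity of 15.15 and saturated test channels at 2 nM. Signal near the scanner limit can hide a change, so the test cannot show that the brightest of these markers were unchanged. An unadjusted p under 0.05 was seen in 1 hepatocyte and 2 cholangiocyte markers. The mean log2 ratio of the Kupffer cell and leukocyte list ran from -0.16 to 0.09 over the arrays at 2 nM, and from -0.02 to 0.11 at 0.02 nM, with 16 of 17 steps below 0 and a median of -0.09. For the hepatocyte list the ranges were -0.34 to 0.28 at 2 nM and -0.34 to 0.32 at 0.02 nM. Their part in the decreases above was not tested, and fewer cells of a type and less RNA per cell cannot be told apart.

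The 8 arrays were alike in brightness. Median green signals lay between 281.7 and 303.1 and median red signals between 352.5 and 379.7, and 76 to 100% of the probes were well above background in the test channel. Both doses were read on the same 2 days of 1 scan session, and each day held a single dye orientation, so day and dye cannot be told apart. Within a day 17 genes passed with the test RNA in red, 9 higher and 8 lower, and 24 with it in green. The 19 named genes that passed had the same sign on both days, which their choice for separated arrays fixed in advance.

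A 100-fold step in dose was also made for TCDF (10 nM over 0.1 nM) and TCDD (1 nM over 0.01 nM). The doses differ between compounds, and TCDD was read in another scan session, so the steps are set side by side. The limma fit gave 31 genes past the test in the TCDF step, 6 higher and 25 lower, and 1303 in the TCDD step. Cyp1b1 had steps of 2.79 ± 0.21 with PeCDF, 1.83 ± 0.21 with TCDF and 3.99 ± 0.21 with TCDD. Slc2a5 had -1.23 ± 0.13 with PeCDF, -1.06 ± 0.13 with TCDF and -1.56 ± 0.13 with TCDD.

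The PeCDF step minus the TCDF step was tested, both furans being from the same session. No gene passed (0 of 34831, 0%), with 419 at an unadjusted p under 0.05 and 0 with the animal as a replicate block. Without rat B at 0.02 nM 24 genes passed, and without rat B at 2 nM 2 did. Named genes were chosen for a large PeCDF step, which favours a larger step with PeCDF than with TCDF. The PeCDF step minus the TCDF step was 0.96 for Cyp1b1 (95% interval 0.30 to 1.63), 0.42 for Defb1 (0.11 to 0.72), 0.30 for Lect2 (0.10 to 0.51) and 0.29 for Hsd17b2 (0.13 to 0.44). It was 0.85 for AB032087 (0.31 to 1.39), 0.29 for Selenbp1 (-0.09 to 0.67), 0.13 for Ddit4l (-0.08 to 0.35) and -0.02 for AB084894 (-0.37 to 0.34). For Cyp1a2 saturation at 2 nM limits the difference, and none is given. These intervals are not adjusted for the number of genes, and the adjusted p was 1 for each of these genes. Among the decreases the difference was -0.17 for Slc2a5 (-0.58 to 0.24) and 0.21 for Pfkfb1 (0.01 to 0.40).

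**Figure D5:**
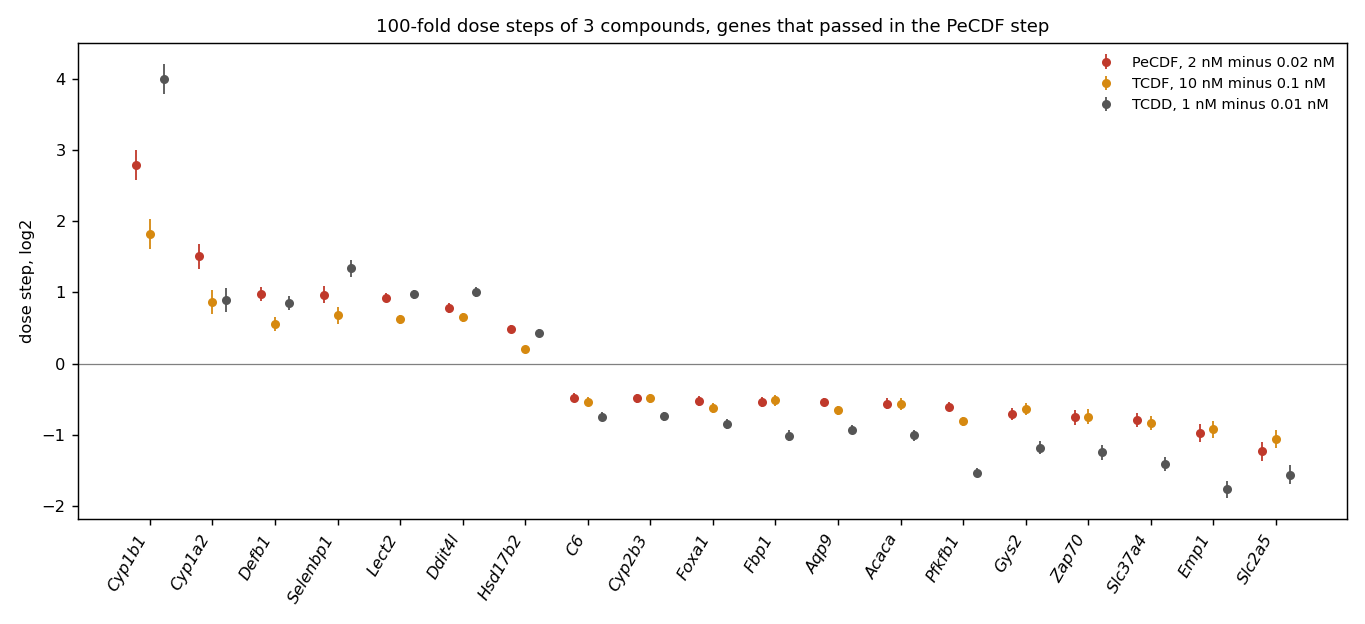
Points are dose steps in log2 units with standard errors of the limma fit for the 19 named genes of the PeCDF step: PeCDF 2 nM minus 0.02 nM in red, TCDF 10 nM minus 0.1 nM in orange and TCDD 1 nM minus 0.01 nM in grey. Cyp1b1 has steps of 2.79 with PeCDF, 1.83 with TCDF and 3.99 with TCDD. For Cyp1a2 the test channel was saturated on 3 of 4 arrays at PeCDF 2 nM, which limits its PeCDF step.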

How the data were processed

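RNA of rat hepatocytes was measured on 28 Agilent 2-colour arrays in 7 groups. The deposited files of the authors hold spot intensity and local background, and a log10 ratio that the series table turns to test over DMSO RNA; per the file headers they were read with Feature Extraction A.7.5.1, and per the submitters' processing notes with 9.1. From the intensity, log2 ratios were computed with limma 3.58.1 in R 4.3.3 (normexp, offset 50; loess; 1067 marked spots, 0.0921%, dropped); the deposited log10 ratio served as an alternative and no deposited log2 value was used. Dye pairs were averaged to 14 ratios of single rats, with 990 values (0.172%) missing. Probes well above background on all 4 test arrays of a group or on 14 DMSO arrays were kept (37824 of 41012), the brightest per gene. Group means were fitted over all groups (3.20 prior and 7 residual degrees of freedom), with p-values adjusted over all genes. The number of arrays limits the precision, and the median standard error of a step was 0.07.

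Named are the called genes with a symbol and separated arrays, the AHR battery, and members of other lists with the smallest p; not all are given, and genes outside the rule are marked, and 1 gene of the dose step is not reported here. Members and lists were chosen with earlier results of these data known. The same rats pair the groups: the A minus B differences at the 2 doses correlated at r = 0.30 across 34455 genes, which are not independent. Symbols came from RefSeq tables, and 22469 probes had none. Alternatives were other scalings, filters and probes, blocks, subsets of arrays and left-out rats.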

Additional observations from a re-analysis of the deposited data

How the results depend on the processing

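The dose step gave 29 genes, and all 19 named genes among them kept their sign under every alternative. They were named for separated arrays, so their sign could not change with subsets of arrays or left-out rats. Other scalings could have changed it. The count was 17 with no background correction, 7 with Agilent's own log ratio or the deposited series table, 1 with median centring, 13 with the second session alone, 1 with the PeCDF groups alone, and 17 with the test RNA in red. With the animal as a replicate block it was 49, with the animal within a scan session as a block 117, and with single arrays 569 (dye term) and 521 (day as a block); these pairings kept 28, 29, 29 and 29 of the 29. Leaving out rats gave 0 to 125. PeCDF 2 nM against DMSO (1529) gave 735 with Agilent's ratio or the series table, 4 with median centring, 2647 with rat and session together as a block, 4495 and 4985 with single arrays (dye term, day), 442 with the PeCDF groups alone, and 62 to 1209 with rats left out. PeCDF 0.02 nM against DMSO (0) gave 2 with no background correction, 601 and 1126 with single arrays (dye term, day), 56 in red alone, 76 in green alone, and 0 to 157 with rats left out. The difference of the furan steps (0) stayed at 0 except for 0 to 24 with rats left out. The step of Slc7a5, 0.06, ran from -0.011 (without rat A at 2 nM) to 0.14 with rats left out. The causes were not tested, except that left-out rats and fewer groups leave fewer samples. Saturation limits Cyp1a1 and Cyp1a2 and may limit other genes of like brightness, such as hepatocyte markers. The 2 rats per dose limit every test, also those with arrays entered singly.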

Other observations

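In 2 genes, picked after their values were seen, the rats differed. Cyp7a1, the rate-limiting enzyme of bile acid synthesis, had -1.72, -1.49, -1.34 and -1.29 at 2 nM, against -1.12, -1.05, 0.57 and 0.51 at 0.02 nM. At 0.02 nM rat A was below DMSO and rat B above it in both dye orientations, and the step was -1.19 ± 0.50 (limma adjusted p = 0.905). Fasn, the fatty acid synthase, had -1.65, -1.72, -1.17 and -1.20 at 2 nM, against -0.95, -1.01, -0.07 and -0.08 at 0.02 nM. Rat A was lower than rat B at both doses, and the step was -0.91 ± 0.41 (adjusted p = 0.982). For both genes the arrays of the 2 doses did not overlap, and the step of rat B was farther below 0 than that of rat A: -1.85 and -0.52 for Cyp7a1, -1.11 and -0.71 for Fasn. The difference between rats has no replicate here.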
